A study of Rattus norvegicus with 4 samples.

Results

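The regulators of G protein signaling (RGS) are proteins that switch off signals from G protein-coupled receptors, and 10 of their genes were examined here in rat liver under inhalational anesthesia. The members were *Rgs1*, *Rgs2*, *Rgs3*, *Rgs4*, *Rgs5*, *Rgs10*, *Rgs12*, *Rgs14*, *Rgs16*, and *Rgs18*, which are 10 of the 16992 annotated genes in the deposited tables and were matched by gene symbol. The family was selected on the TPM values of *Rgs16*, which was chosen by its increase with desflurane in these same libraries, so that increase is a description and no test of it was made. RNA came from the left lateral liver lobe of 4 wild type male Wistar rats, and every condition was represented by a different animal. Sevoflurane (4.5%) or desflurane (6%) was inhaled either for 6 hours or, in the respective controls, only until consciousness was lost. All rats, controls included, had therefore inhaled an anesthetic, had been without food and water for 2 hours beforehand, and were sacrificed at about the same clock time. A liver from a rat without anesthesia was not analysed here. As each condition has 1 library, differences between them could not be set against the spread of replicates, and p-values are not given.

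When an agonist activates its receptor, the alpha subunit of the G protein binds GTP, and signaling ends when that GTP is hydrolyzed. The RGS domain binds the activated alpha subunit and speeds up this hydrolysis, so a cell with more of an RGS protein loses the signal sooner. *Rgs1*, *Rgs2*, *Rgs3*, *Rgs4*, *Rgs5*, *Rgs16*, and *Rgs18* belong to the R4 subfamily, most of whose proteins hold little more than the RGS domain, and *Rgs10*, *Rgs12*, and *Rgs14* belong to the R12 subfamily. In liver, hormones such as vasopressin, angiotensin, and catecholamines act through these receptors, and *Rgs16* is known to vary with feeding, fasting, and the time of day.

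Expression is given as TPM, the transcript abundance of StringTie, which is scaled for library size and for transcript length, so that levels of different genes can be compared. A gene was past the limits when its higher TPM value exceeded 2 and the libraries compared differed more than 2-fold, which is the rule of the paper. The amount of aligned sequence derived from the tables was between 4.47 and 5.40 Gb per library. The markers of hepatocytes, led by *Alb*, were all present, with summed TPM values between 144887 and 160630. In these bulk samples, fewer cells of a type and less RNA per cell cannot be told apart. For the 9136 genes above 2 TPM in each of the 4 libraries, log2 ratios to the own control had a median of 0.05 with sevoflurane and 0.12 with desflurane.

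Of the 10 members, 3 were past the limits in a comparison of a 6 h library with its own control. With sevoflurane, *Rgs10* was higher and *Rgs18* was lower among the 7 members above 2 TPM in at least 1 of the libraries compared, beside 2.23% of 9754 such genes that were higher and 3.3% that were lower. With desflurane, *Rgs16* was higher among 6 such members and none was lower, compared with 2.79% of 9855 genes that were higher and 1.48% that were lower. Because *Rgs16* was chosen for this increase, its call was fixed in advance and cannot be read beside that share. With so few members, these counts do not set the family apart from all genes. Across all 10 members, the median log2 ratio of TPM + 1 was 0.02 with sevoflurane and 0.18 with desflurane, beside 0.00 and 0.01 for all 16992 genes. For the genes able to pass the limits, these medians were 0.05 and 0.11. With sevoflurane 5 members were higher and 5 lower, and with desflurane 6 were higher and 4 lower. The median and counts with desflurane include *Rgs16*, chosen for its increase, so they cannot be read beside the values of all genes.

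**Figure D1:**
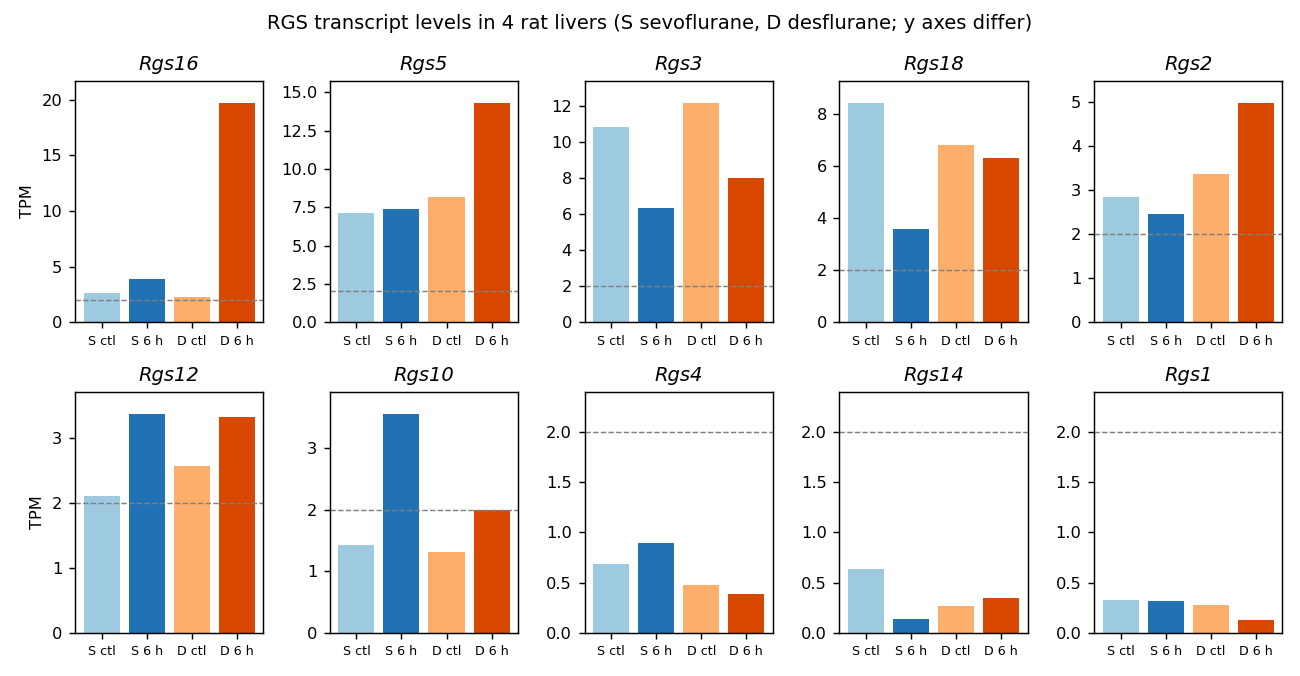
TPM values (y axis, starting at 0, with a different scale in each panel) of the 10 RGS genes in the sevoflurane control (S ctl), after 6 h of sevoflurane (S 6 h), in the desflurane control (D ctl), and after 6 h of desflurane (D 6 h); each bar is 1 library and the dashed line is the limit of 2 TPM. The highest bar of *Rgs16* is 19.7 after 6 h of desflurane, and *Rgs1*, *Rgs4*, and *Rgs14* are below the limit in every library.

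The promoters of the 3 genes past the limits are shown because these genes passed the limits with different agents or in different directions. Each sequence runs from 250 bases before to 50 bases after the RefSeq start in the GRCr8 build, 5′ to 3′ on the strand of the gene, whereas the expression tables use rn6. Capitals mark matches on either strand to any of 5 motifs. The GC box was searched as GGGCGG, the letters bound by Sp factors. The CCAAT box was searched by its own name, and the TATA box, a core element near the start of many genes, as TATAAA. The E-box, the element of clock and carbohydrate response factors, was searched as CACGTG. The half-site of the cAMP response element, a target of glucagon signaling, was searched as TGACG. No match overlaps another in these sequences.
Rgs16, chr13:68437870-68438169, plus strand: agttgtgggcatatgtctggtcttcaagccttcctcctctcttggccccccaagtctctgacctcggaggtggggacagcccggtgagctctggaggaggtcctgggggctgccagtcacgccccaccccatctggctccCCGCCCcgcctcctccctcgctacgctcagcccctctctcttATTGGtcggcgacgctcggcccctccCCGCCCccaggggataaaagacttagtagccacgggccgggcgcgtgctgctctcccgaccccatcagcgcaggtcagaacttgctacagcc
Rgs10, chr1:192418028-192418327, minus strand: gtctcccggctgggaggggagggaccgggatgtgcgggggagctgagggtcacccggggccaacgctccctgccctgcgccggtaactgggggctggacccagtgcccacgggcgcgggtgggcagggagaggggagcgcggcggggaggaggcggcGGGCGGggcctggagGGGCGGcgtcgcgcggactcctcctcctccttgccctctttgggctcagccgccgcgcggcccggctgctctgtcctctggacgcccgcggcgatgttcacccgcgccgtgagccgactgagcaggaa
Rgs18, chr13:59066293-59066592, minus strand: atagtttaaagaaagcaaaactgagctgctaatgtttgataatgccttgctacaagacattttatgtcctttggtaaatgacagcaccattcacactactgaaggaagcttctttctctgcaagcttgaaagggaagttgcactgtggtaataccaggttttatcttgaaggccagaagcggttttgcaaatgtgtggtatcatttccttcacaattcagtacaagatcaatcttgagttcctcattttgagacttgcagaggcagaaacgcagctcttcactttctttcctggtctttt
The *Rgs16* window held 2 GC boxes, starting at positions -110 and -42 from the RefSeq start, and a CCAAT box at -68. The *Rgs10* window held 2 GC boxes, and the *Rgs18* window held no match to any of these letters. GC content was 66.3% for *Rgs16*, 76.3% for *Rgs10*, and 39.7% for *Rgs18*, compared with a median of 52.3% over 27457 promoters of the same length. All 10 members had a promoter in this set. A GC box was found in 6 of the 10 members and in 34.9% of all promoters. For the CCAAT box these were 3 members and 37.7%, for the TATA box 3 members and 14.3%, for the cAMP half-site 4 members and 22.0%, and for the E-box 0 members and 6.65%. A match is a stretch of letters and not a site of binding, and no match says nothing about a factor.

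*Rgs16* encodes an R4 protein that acts on alpha subunits of the Gi and Gq classes. The gene is on chr13:71180078-71183522 of rn6, plus strand. Its TPM values were 2.60 in the sevoflurane control, 3.84 at 6 h of sevoflurane, 2.23 in the desflurane control, and 19.7 at 6 h of desflurane. The desflurane library was thus far above the other 3, which were close together. The increase was 8.85-fold against the desflurane control and 7.58-fold against the sevoflurane control, and the library after 6 h of desflurane was 5.13-fold higher than that after 6 h of sevoflurane. With sevoflurane, the increase was 1.48-fold against its own control and 1.72-fold against the other, so neither passed the limits. The coverage of its exons, the mean number of reads over each base, was 4.68, 6.501, 4.17, and 33.2 in the same order of libraries. In the desflurane control 44.5% of all genes were lower than *Rgs16*, and after 6 h of desflurane 76.9% were lower. Genes whose higher value was between 2 and 20 TPM, as was that of *Rgs16*, were past the limits upward with desflurane in 2.71% of 5830 cases.

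None of the 6 annotated genes within 200 kb of *Rgs16* was past the limits with desflurane against the own control. *Rgs8*, another R4 gene that lies 40404 bases upstream, had TPM values between 0 and 0.283. *Glul*, the glutamine synthetase gene within 200 kb, was between 251 and 397 and passed no limit against the own control. *Glul* was named after its values were seen.

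The genes with the profile nearest to that of *Rgs16* were *Adcy10*, *Hacl1*, *Eif4ebp3*, *Cyp2c24*, and *Egr1*. Nearness was the root mean square distance between centered log2(TPM + 1) values over the 4 libraries, searched among 9992 genes with a TPM value higher than 2 in at least 1 library. It was 0.139 for *Adcy10*, which encodes the soluble adenylyl cyclase, and between 0.279 and 0.369 for the other 4. *Adcy10* had TPM values of 1.44, 2.24, 0.854, and 10.2 in the order of libraries used above, and it was 11.97-fold higher with desflurane than in the respective control. *Egr1*, an immediate early transcription factor, was at 24.5, 31.4, 11.6, and 92.0. *Hacl1*, which encodes a peroxisomal enzyme of fatty acid alpha-oxidation, had values of 101, 86.5, 61.3, and 358. All 5 genes were therefore highest after 6 h of desflurane and lowest in the desflurane control. With 4 libraries and 1 of them far from the rest, many genes can have such a profile.

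**Figure D2:**
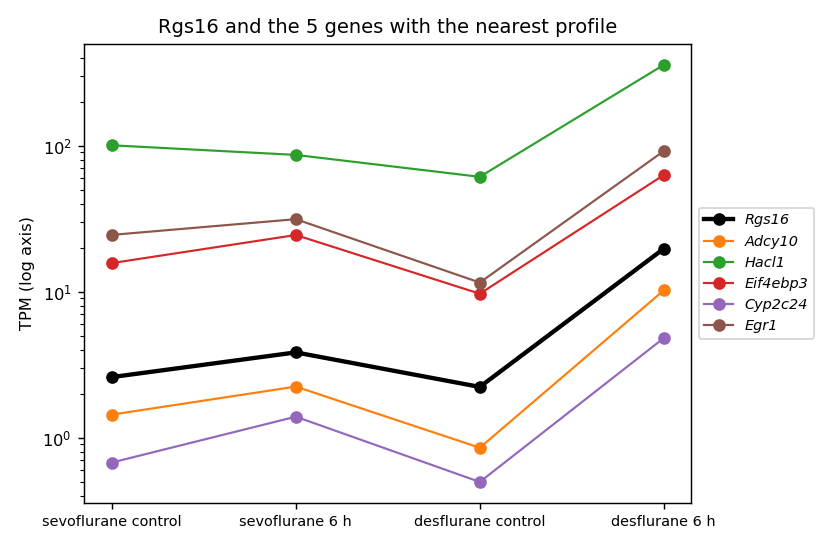
TPM values (y axis, log scale) of *Rgs16* (thick black line) and of the 5 genes with the nearest profile in the 4 libraries (x axis); each point is 1 library. All 6 genes are highest after 6 h of desflurane, where *Rgs16* is at 19.7 and *Adcy10* at 10.2.

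Genes of the fasting response were described beside *Rgs16*, since time without food and time under anesthesia cannot be told apart in this design. Of 13 such genes, 7 were past the limits upward with desflurane and 2 with sevoflurane, and none was past them downward. The shares of all genes upward were 2.79% with desflurane and 2.23% with sevoflurane. The median log2 ratio of TPM + 1 was 1.17 with desflurane and 0.25 with sevoflurane, compared with 0.11 and 0.05 for all genes able to pass the limits. Against the control of the other agent, 5 were upward with each agent, and 1 (*Pdk4*) was downward with sevoflurane. The shares of all genes were then 2.84% upward with desflurane, and 2.52% upward and 2.59% downward with sevoflurane. *Ppargc1a*, a coactivator of gluconeogenic genes, had TPM values of 4.23, 5.08, 2.90, and 13.5 in the order of libraries used above. *Pck1*, a key enzyme of gluconeogenesis, had values of 1079, 980, 414, and 951 in the same order. It was 2.30-fold higher with desflurane than in its own control, but for this gene the 2 controls differed more than did the 6 h libraries. Between the controls, 10 of the 13 genes were lower in the desflurane control, with a median log2 ratio of TPM + 1 of -0.25. *Pck1* and *Igfbp1* were both past the limits there, beside 1.17% of all genes downward. Among 18 genes that respond to carbohydrate, 1 (*G6pc*) was past the limits upward with desflurane, beside 2.79% of all genes. With desflurane, 2 (*Scd* and *Pnpla3*) were past them downward, beside 1.48%, and with sevoflurane *Pnpla3* was, beside 3.3%. Against the sevoflurane control, *G6pc* and *Klf10* were upward with desflurane and none was downward. *Pnpla3* also differed past the limits between the controls, at 11.7 TPM in the desflurane control and 2.74 in the sevoflurane control. The part of feeding state in the increase of *Rgs16* was not tested.

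*Rgs5* encodes an R4 protein and is widely used as a marker of pericytes, the cells that wrap small vessels. It lies on chr13:87966820-88002831, plus strand. TPM values were 7.14 in the sevoflurane control, 7.40 at 6 h of sevoflurane, 8.19 in the desflurane control, and 14.3 at 6 h of desflurane. As with *Rgs16*, the library after 6 h of desflurane was the highest and the other 3 were close together. The ratio with desflurane was 1.75 against its own control, within the limits, and 2.003 against the sevoflurane control, just past them. After median-of-ratios scaling the log2 ratio to the sevoflurane control was 0.90 and no longer past the limits. The 11 markers of pericytes and smooth muscle added up to 57.0 TPM in the desflurane control and 61.0 after 6 h of desflurane, with 7 markers higher and 4 lower. Of 9 able to pass, only *Kcnj8* was past the limits, downward, beside 1.48% of all genes. With sevoflurane, 4 of these markers were higher and 7 lower, with a median log2 ratio of TPM + 1 of -0.22. Of 7 able to pass with sevoflurane, only *Acta2* and *Tagln* were past the limits, at 2.52-fold and 2.36-fold higher, beside 2.23% of all genes upward. *Rgs5* was 1.04-fold higher. The 9 markers of stellate cells and fibroblasts added up to 524 TPM in the desflurane control and 573 after 6 h of desflurane, with 7 higher and 2 lower. Their sums were 523 TPM in the sevoflurane control and 491 after 6 h of sevoflurane, with 5 higher and 4 lower. None of these 9 was past the limits with either agent against the own control. The part of any of these cells in the values of *Rgs5* was not tested.

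*Rgs4*, which lies 51985 bases from *Rgs5* on the opposite strand (chr13:88054817-88061108) and encodes an R4 protein best known from brain and heart, was between 0.384 and 0.891 TPM and could not pass the limits. Its coverage was between 0.647 and 1.51.

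*Rgs2* encodes an R4 protein that prefers the Gq class. The gene is on chr13:60846458-60849061, minus strand, where its span overlaps that of *Uchl5* on the plus strand. TPM values were 2.84 in the sevoflurane control, 2.44 at 6 h of sevoflurane, 3.36 in the desflurane control, and 4.97 at 6 h of desflurane. The value was lower than in the respective control with sevoflurane (0.860-fold) and higher with desflurane (1.48-fold), both within the limits. The 6 h libraries differed by 2.03-fold, which was past the limits as such. In this direct comparison, *Rgs2* and *Rgs16* were higher with desflurane among 7 members able to pass, compared with 2.76% of 9829 genes that were higher. *Rgs16* was chosen for its increase with desflurane, so only *Rgs2* can be read beside that share. After scaling the log2 ratio of *Rgs2* was 0.97 and within the limits. The labels and the paper name different library kits, both sold as stranded, and whether strand was used to assign reads is not given in the sources used here, so reads of *Uchl5* may be counted in *Rgs2*.

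*Rgs18* encodes an R4 protein of platelets and other blood cells. It lies on chr13:61565483-61591139, minus strand. TPM values were 8.43 in the sevoflurane control, 3.56 at 6 h of sevoflurane, 6.81 in the desflurane control, and 6.31 at 6 h of desflurane. The sevoflurane library was the lowest of the 4 and the other 3 were within 1.34-fold of each other. The decrease with sevoflurane was 2.37-fold against its own control and 1.91-fold against the desflurane control, so it was past the limits with the own control only. With desflurane the ratio was 0.926. Between the controls, the desflurane control was 0.808-fold of the sevoflurane control.

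Most markers of leukocytes and of macrophages were lower with sevoflurane, as was *Rgs18*. The 11 markers of all leukocytes added up to 232 TPM in the sevoflurane control, 113 at 6 h of sevoflurane, 161 in the desflurane control, and 150 at 6 h of desflurane. The 10 markers of macrophages and Kupffer cells added up to 793, 478, 628, and 743, and no marker of either list was at 0 in any library. With sevoflurane, 10 of the 11 leukocyte markers and all 10 macrophage markers were lower than in the own control. Their median log2 ratios of TPM + 1 were -0.88 and -0.63. Past the limits were 4 and 3 of them, beside 3.3% of all genes. The leukocyte markers past the limits were *Ptprc*, *Cd53*, *Rac2*, and *Tyrobp*. Against the desflurane control, 10 leukocyte and 10 macrophage markers were again lower, with medians of -0.39 and -0.31. There, 2 of each list were past the limits, beside 2.59% of all genes. Between the controls, all 11 leukocyte and 9 macrophage markers were lower in the desflurane control, with 0 past the limits. The 8 neutrophil markers could not pass the limits in any comparison. Of them, 3 were higher and 2 lower with sevoflurane, and 1 was higher and 4 lower with desflurane, each against the own control. The 8 platelet markers were low, with sums between 9.21 and 11.8 TPM, and the most abundant of them, *Clec1b* and *Pf4*, were between 3.34 and 4.92, while *Treml1* was at 0 in the sevoflurane control and after 6 h of desflurane. *Rgs18* was above both *Clec1b* and *Pf4* in 3 of 4 libraries. In the sevoflurane 6 h library it was 3.56, beside 3.34 for *Clec1b* and 4.92 for *Pf4*. Levels of different genes do not show which cells carried *Rgs18*. The part of these cells in the change of *Rgs18* was not tested.

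*Rgs1*, an R4 gene of lymphocytes whose product dampens responses to chemokines, is on chr13:61066196-61070522, minus strand, between *Rgs2* and *Rgs18*. It was between 0.127 and 0.323 TPM, with a coverage between 0.215 and 0.581, and no change can be read at this depth. The markers of T and NK cells (12 genes) added up to between 25.1 and 35.8 TPM, most of which was *Cd4* (18.3 to 23.3), and those of B cells (5 genes) to between 2.92 and 7.54. With sevoflurane, 10 of the 12 T and NK cell markers were lower than in the own control. Of 5 able to pass, *Cd8a*, *Lck*, and *Nkg7* were past the limits, beside 3.3% of all genes. Of the 5 B cell markers 4 were lower, and *Cd79b*, the only 1 able to pass, was past them. Against the desflurane control, 8 of the 12 were lower and only *Cd8a* was past the limits, beside 2.59% of all genes. No B cell marker was able to pass there. Between the controls, *Nkg7* was past the limits, lower in the desflurane control. With desflurane no marker of either list was past the limits against the own control.

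**Figure D3:**
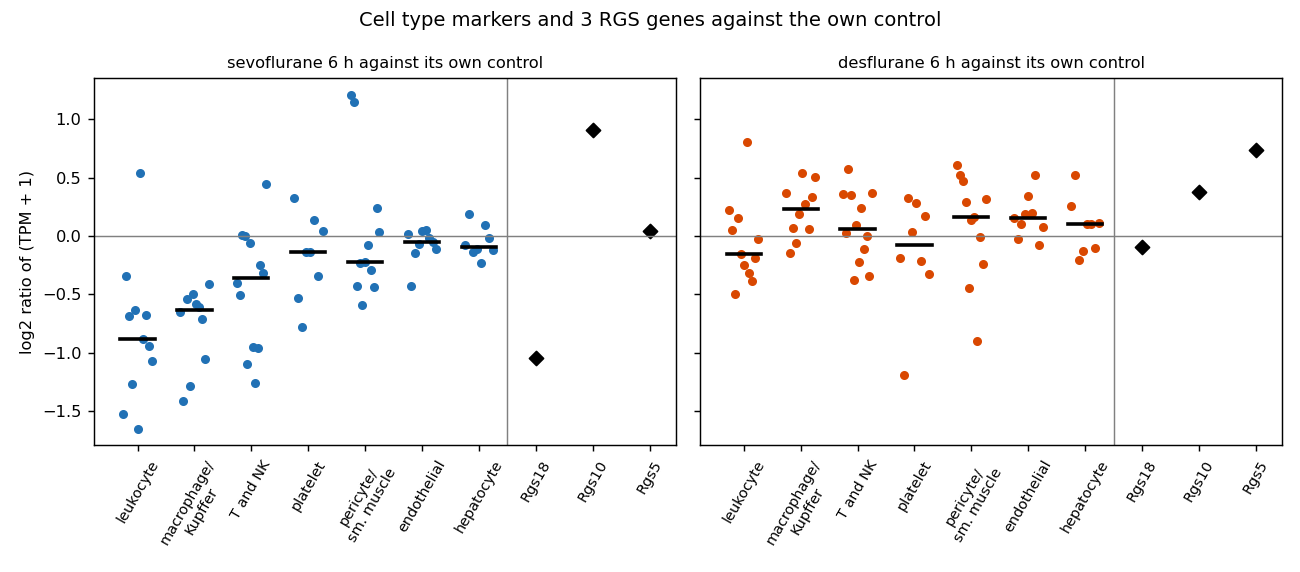
Log2 ratio of TPM + 1 to the own control (y axis) for each marker gene of 7 cell types (dots, with the median as a black line) and for *Rgs18*, *Rgs10*, and *Rgs5* (diamonds), with sevoflurane on the left and desflurane on the right. With sevoflurane, *Rgs18* (-1.05) lies among the leukocyte and macrophage markers (medians -0.88 and -0.63), whereas *Rgs10* (0.91) lies above all of their values.

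*Rgs3* was the most abundant member in both controls. The gene is on chr5:78483893-78567280, plus strand, and it encodes long and short R4 proteins that share the RGS domain at the end of the protein. TPM values were 10.9 in the sevoflurane control, 6.34 at 6 h of sevoflurane, 12.2 in the desflurane control, and 7.995 at 6 h of desflurane. Both 6 h libraries were below both controls. The ratio to the own control was 0.584 with sevoflurane and 0.657 with desflurane, and against the control of the other agent it was 0.521 and 0.737, so no ratio passed the limits. After scaling, the log2 ratio with sevoflurane to the desflurane control was -1.01, just past them. *Rgs3* was the only member lower with both agents in all 4 of these comparisons other than *Rgs18*.

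The rows that StringTie assembled from the reads show where in *Rgs3* the signal came from. These rows list the same reads again and were not added to the annotated values. In the sevoflurane control, a row of 3423 bases at the 3′ end (chr5:78563845-78567267) had a TPM value of 23.8, whereas the rows before it were between 1.51 and 2.66. After 6 h of sevoflurane this 3′ row was at 12.1, and in the desflurane control it was at 25.4. After 6 h of desflurane the assembly gave a row over the whole span instead, with a value of 14.3. In 3 of the 4 libraries the 3′ row was thus well above the rest of the gene, and this row was lower after 6 h of sevoflurane than in the controls, as was the annotated gene. The row at the 5′ end was not lower than in the sevoflurane control: it was at 2.66 there and at 4.48 after 6 h of sevoflurane, with other ends. A short row inside the gene was at 1.51 and 1.32 in the same 2 libraries.

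**Figure D4:**
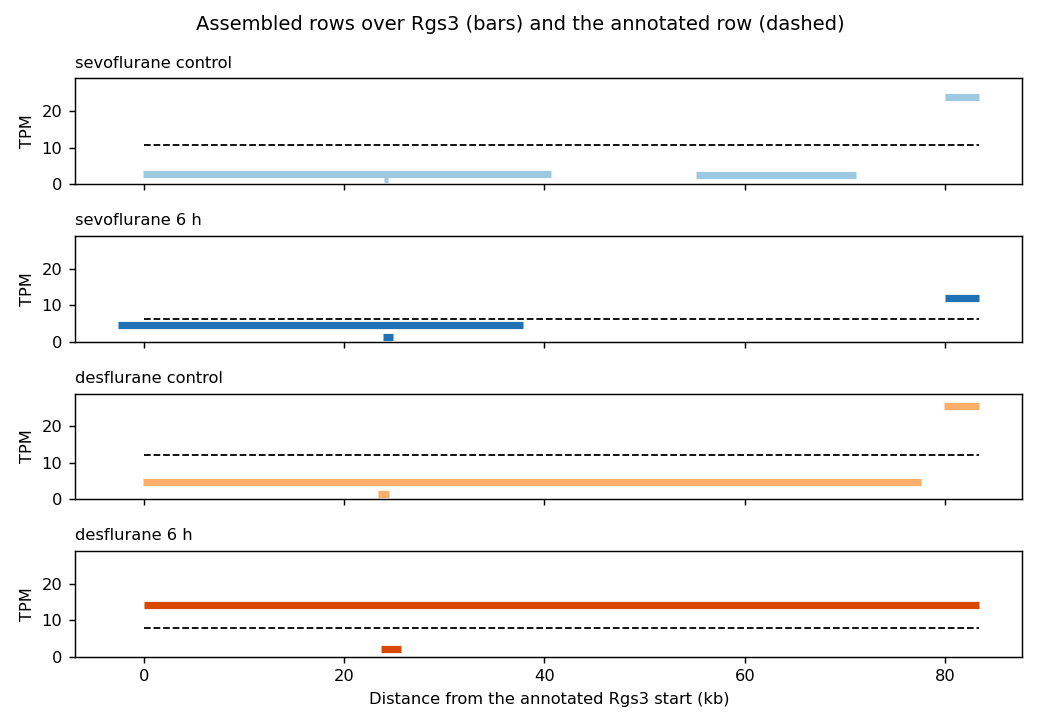
Assembled rows on the strand of *Rgs3* (bars, with the TPM value on the y axis) against the distance from its annotated start in kb (x axis), 1 panel per library; the dashed line is the TPM value of the annotated gene. In both controls and after 6 h of sevoflurane a short row at the 3′ end is the highest, at 23.8, 25.4, and 12.1, and after 6 h of desflurane a row over the whole gene is at 14.3.

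*Rgs10* encodes a small R12 protein of macrophages and other immune cells. It lies on chr1:199782076-199823386, minus strand. TPM values were 1.43 in the sevoflurane control, 3.56 at 6 h of sevoflurane, 1.31 in the desflurane control, and 1.995 at 6 h of desflurane. Both 6 h libraries were above both controls, and the sevoflurane library was the highest. The increase with sevoflurane was 2.49-fold against its own control and 2.72-fold against the desflurane control. No other member was past the limits in the latter comparison, where it was upward beside 2.52% of 9754 genes, compared with 2.59% downward. With desflurane the ratio was 1.52 against its own control and 1.39 against the other, and the value was just below the limit of 2 TPM. The coverage was 2.57 in the sevoflurane control and 6.03 after 6 h of sevoflurane. With a pseudocount of 1 TPM the log2 ratio was 0.91 and no longer past the limits. The leukocyte and macrophage markers given above had lower sums after 6 h of sevoflurane, in the opposite direction to *Rgs10*.

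*Rgs12* encodes a large R12 protein with several other domains. It lies on chr14:80982162-81053905, minus strand. TPM values were 2.11 in the sevoflurane control, 3.38 at 6 h of sevoflurane, 2.57 in the desflurane control, and 3.32 at 6 h of desflurane. Both 6 h libraries were above both controls, with ratios to the own control of 1.60 with sevoflurane and 1.29 with desflurane, within the limits. *Rgs14*, an R12 gene best known from brain and lymphoid tissue (chr17:9777925-9792007, minus strand), was between 0.140 and 0.631 TPM. Its coverage was between 0.237 and 1.13, and the 2 controls differed 2.32-fold, so its ratios are not precise enough to be read.

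The 2 controls differed in the rat and in the agent inhaled until consciousness was lost, which cannot be told apart. With 1 library each, their difference does not measure the spread between rats. The 6 members with TPM values higher than 2 in a control had ratios of the desflurane control to the sevoflurane control between 0.808 (*Rgs18*) and 1.22 (*Rgs12*). None of the 10 members was past the limits in this comparison, beside 1.17% of 9756 genes in each direction. Against the sevoflurane control, 6 members were able to pass with desflurane and 2 were higher (*Rgs5* and *Rgs16*), beside 2.84% of 9865 genes, and none was lower (1.58%). Of these 2, *Rgs16* was chosen for its increase with desflurane and cannot be read beside that share. The comparisons with each control share their 6 h library, and those of both agents with 1 control share that control.

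**Figure D5:**
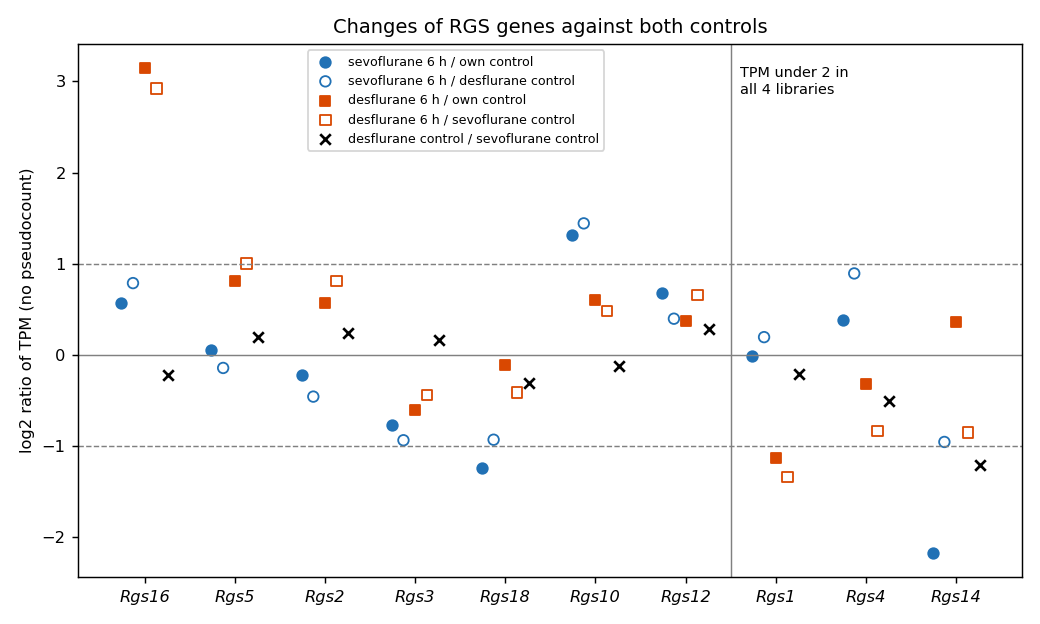
Log2 ratio of TPM (y axis, no pseudocount) for the 10 RGS genes (x axis): sevoflurane 6 h (circles) and desflurane 6 h (squares) against the own control (filled) and the control of the other agent (open), with the ratio of the 2 controls as crosses; dashed lines are 2-fold. *Rgs16* is at 3.15 and 2.92 with desflurane, and the 3 genes on the right have TPM values below 2 in every library.

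Of the RGS genes that are not members, 10 of 13 searched by symbol were in the tables. *Rgs19*, an RZ gene, was between 2.82 and 4.55 TPM, *Rgs9bp*, which encodes an anchor protein for R7 members, was between 2.59 and 4.13, and *Rgs7* of the R7 subfamily was between 0.581 and 1.88. The other 7 were below 2 TPM in every library. None of these 10 genes was past the limits with either agent against its own control, but only 2 of them were able to pass.

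RGS proteins act on alpha subunits of G proteins, but a given RGS protein acts only on some classes of them. The list used here also holds alpha genes outside the Gi and Gq classes, such as *Gna12*. Of 16 G alpha genes, 11 were able to pass with sevoflurane and 10 with desflurane. *Gnat1* was past the limits upward and *Gna15* downward with sevoflurane, beside the shares of all genes given above (2.23% and 3.3%), and *Gna14* was past them downward with desflurane, beside 1.48%. *Gnat1* had TPM values of 2.31, 6.57, 3.84, and 6.06 in the order of libraries used above, *Gna15* had 2.09, 0.607, 1.57, and 1.14, and *Gna14* had 1.96, 3.75, 5.09, and 2.43. The controls differed past the limits for *Gna14*. *Gna15* encodes an alpha subunit of blood cells, and *Gna14* a member of the Gq class. By the mean over libraries, the most abundant alpha subunits were *Gna12* (72.5 to 92.7 TPM), *Gnai3* (55.8 to 61.8), and *Gnai2* (42.3 to 50.1), the last 2 of the Gi class, while the third Gi gene, *Gnai1*, was between 3.54 and 4.68. Of 16 G beta and gamma genes, led by *Gnb1*, *Gnb2*, and *Gng5*, 9 were able to pass with sevoflurane and 10 with desflurane. None was past the limits with either agent. The median log2 ratios of TPM + 1 of the alpha genes were -0.02 with sevoflurane and -0.00455 with desflurane, and those of the beta and gamma genes were -0.06 and -0.04.

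Among 14 effectors, the adenylyl cyclases and phospholipases C beta, 10 were able to pass with each agent against the own control. Only *Adcy10* was past the limits, upward with desflurane, beside 2.79% of all genes. Its product is not a target of G proteins. *Adcy6* (23.6 to 26.8 TPM), *Plcb1* (15.6 to 18.4), and *Plcb3* (9.59 to 12.9) had the highest mean TPM over the libraries among the effectors. Of 8 receptor kinases and arrestins, led by *Grk2*, *Grk6*, and *Arrb2*, 5 were able to pass with each agent and none was past the limits. Of 7 genes for GoLoco proteins, which hold inactive alpha subunits, and chaperones of alpha subunits, 4 were able to pass with each agent. *Gpsm3* was past the limits downward with sevoflurane, beside 3.3% of all genes. It fell from 4.84 TPM in the control to 1.18, compared with 3.75 and 4.01 in the desflurane libraries. *Gpsm3* is expressed mainly in leukocytes, whose markers are given above. The more abundant *Ric8a*, *Ric8b*, and *Gpsm2* stayed within the limits.

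Of 35 receptors that couple to Gi or Gq, 18 were able to pass with each agent against the own control. With each agent 1 was past the limits, downward in both cases. The shares of all genes downward were 3.3% with sevoflurane and 1.48% with desflurane. *Adora3*, an adenosine receptor found on macrophages and mast cells, had TPM values of 5.14 in the control of sevoflurane and 0.877 after 6 h of sevoflurane, and of 3.18 and 4.001 in the desflurane libraries. *S1pr1*, a sphingosine 1-phosphate receptor of endothelial cells, had values of 70.5, 38.0, 80.4, and 37.2 in the order of libraries used above. Both 6 h libraries were thus below both controls for *S1pr1*, with ratios to the own control of 0.463 with desflurane and 0.539 with sevoflurane. Against the control of the other agent, *S1pr1* was past the limits with sevoflurane and not with desflurane. The 9 endothelial markers added up to between 284 and 324 TPM and none was past the limits. *Agtr1a* (67.7 to 92.3 TPM) and *Avpr1a* (67.8 to 124), the receptors of angiotensin and vasopressin in hepatocytes, were with *S1pr1* the 3 receptors of the highest mean TPM and stayed within the limits against the own control.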

How the data were processed

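RNA of 4 livers, 1 for each condition, was sequenced, and groups were taken from the labels. The authors trimmed the reads with sickle, mapped them to rn6 using HISAT2, sorted them using SAMtools, and ran StringTie with the refGene annotation of rn6. Coverage (a signal over exons, not scaled for library size), FPKM, and TPM are in the deposited tables. The TPM signal deposited by the authors adds up to 1000000 over assembled rows, and annotated rows are listed in addition on the same scale. The deposited FPKM values are normalized for library size by the authors. Only annotated rows spanning over 200 bases were kept, with TPM summed per symbol. Read counts were not used here, so counting intervals were not calculated and depth is given as coverage. The limits (TPM of 2, 2-fold) follow the paper, and a pseudocount of 1 was used only where TPM + 1 is named. No test was made. The members, lists, and rules for named genes were chosen with earlier results of these data known: all members, the 3 most abundant genes of each list and those past the limits, and the 5 nearest profiles; some are given by count only. Genes outside these rules (*Gnai1*, *Glul*, *Klf10*, *Pdk4*, *Treml1*, *Uchl5*) were named after their values were seen. Promoters came from RefSeq (GRCr8). Calculations used Python 3.11.15, numpy 2.4.6, and pandas 2.3.3, and the calls were checked on simulated data.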

Additional observations from a re-analysis of the deposited data

Results flagged for a closer look

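For 3 members, the 2 agents moved the value in opposite directions relative to the respective controls, and these differences were not tested. The log2 ratio of *Rgs2* was -0.22 with sevoflurane and 0.56 with desflurane. That of *Rgs4* was 0.38 with sevoflurane and -0.32 with desflurane, and that of *Rgs14* was -2.17 and 0.36. *Rgs4* and *Rgs14* were below 1 TPM in every library.

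In the assembled rows, which gave none of the calls above, the highest row over *Rgs12* was 2.97-fold higher after 6 h of desflurane than in the desflurane control. This row lies at the 3′ end of the gene, with TPM values of 4.36 in the desflurane control (chr14:80982075-80985670 of rn6) and 12.98 after 6 h of desflurane (chr14:80983135-80987212). Its ends differ between the libraries, the value was 6.56 in the sevoflurane control and 6.69 after 6 h of sevoflurane, and the annotated gene was 1.29-fold higher with desflurane.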

How the results depend on the processing

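*Rgs16* stayed past the limits with desflurane, against either control and against the 6 h sevoflurane library, under all alternatives run: other limits, a pseudocount, scaling, FPKM, assembled rows, and no length filter. These alternatives use the same libraries in which *Rgs16* was chosen for its increase, so they are no test of it. The highest assembled row was added as an alternative after the data were seen. Numbers of members past the limits are given next where they differed by over 1.5 times. For sevoflurane against its own control the number was 2, and it was 1 with a TPM limit of 5, a pseudocount of 1 TPM, FPKM (with a limit of 2 FPKM), or the highest assembled row, and 4 with a fold limit of 1.5. For desflurane against its own control it was 1, and 2 with no TPM limit or the highest assembled row and 3 with a fold limit of 1.5. For sevoflurane against the desflurane control it was 1, and 0 with a TPM limit of 5, a pseudocount, or FPKM, 2 with the highest assembled row, 3 with scaling, and 4 with a fold limit of 1.5. For desflurane against the sevoflurane control it was 2, and 1 with a pseudocount, scaling, FPKM, or the highest assembled row, and 4 with a fold limit of 1.5. Between the controls it was 0, and 1 with no TPM limit or with assembled rows added, which counts some reads again. Between the 6 h libraries it was 2, and 1 with a TPM limit of 5, a pseudocount, scaling, FPKM, or assembled rows added, and 5 with no TPM limit or a fold limit of 1.5. No call of a member changed direction. Against the desflurane control, *Rgs18* with sevoflurane had a log2 ratio of -0.93, and of -1.01 with scaling, which was past the limits. Against its own control, *Rgs10* with sevoflurane was within the limits with a TPM limit of 5, a pseudocount, FPKM, and either use of assembled rows, and against the desflurane control with the first 3 of these. In FPKM, *Rgs10* was at 0.561 in the sevoflurane control and 1.35 after 6 h of sevoflurane, with a log2 ratio of 1.26. Both values are below the limit of 2 FPKM, so *Rgs10* was not able to pass with FPKM. The cause of the other shifts was not tested. No paired analysis was possible because each condition has 1 library, and for the same reason no library could be left out. Coverage below 2 for *Rgs1*, *Rgs4*, and *Rgs14* limits their ratios.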
